A study of Homo sapiens with 2 samples.

Results

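The miR-30 family was examined in small RNA libraries of A549, a human lung adenocarcinoma cell line. Its members were chosen by name, as the 5p arms of miR-30a, b, c, d and e and the 3p arms of miR-30a, b, d and e, which makes 9 of the 859 mature microRNAs (miRNAs) listed among 5475 small RNA features. The cells were kept for 24 h at 20% oxygen (normoxia) or at 1.2% oxygen (hypoxia), and a single library was sequenced from each (1 per condition), so the ratios below were not checked by replicates. The values are raw counts per mature miRNA, given here also as CPM, the count scaled to 1000000 counts on all mature miRNAs of the same library. These came to 4514818 in normoxia and 8600160 in hypoxia, or 70.0% and 65.6% of all counts in the table.

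miRNAs are cut from hairpin precursors, and either side of the hairpin can give a mature strand, named 5p or 3p after its arm. The strand that is loaded into an Argonaute protein represses messenger RNAs that pair with its seed, the bases at positions 2 to 8, and the other strand is usually degraded. The miR-30 genes are conserved in vertebrates, and the shared seed of their 5p arms lets the members repress overlapping sets of messengers. The family is known in epithelial cells for restraining the epithelial to mesenchymal transition, among others through the transcription factor SNAI1, and miR-30a is known to repress BECN1, which acts in autophagy.

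Mature sequences were taken from RefSeq, where 7 of the 11 miR-30 arms considered (the 9 members and the 3p arms of both miR-30c hairpins) were matched by name. The 5p arms of miR-30a, miR-30c and miR-30e show what the members share and where they differ, with the seed in capitals, read from the 5′-end:
hsa-miR-30a-5p: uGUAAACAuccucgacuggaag
hsa-miR-30e-5p: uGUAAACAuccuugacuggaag
hsa-miR-30c-5p: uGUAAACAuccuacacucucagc
Counting from the 5′-end of miR-30a-5p, miR-30e-5p differed from it by the single substitution C13U, well past the seed, while miR-30c-5p stood at an edit distance of 6 from it, the number of bases substituted, inserted or deleted. The seed GUAAACA was read in 5 mature miRNAs of the table, which were the 5 members named 5p, and in no other.

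The 3p arms fell into groups with other seeds. They are shown with their seeds in capitals, because their counts are compared with those of the 5p arms below:
hsa-miR-30a-3p: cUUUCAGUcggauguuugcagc
hsa-miR-30e-3p: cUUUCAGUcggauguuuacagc
hsa-miR-30c-1-3p: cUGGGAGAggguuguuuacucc
hsa-miR-30c-2-3p: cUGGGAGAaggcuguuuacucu
The 3p arms of miR-30a and miR-30e differed by the substitution G18A, counted from the 5′-end of miR-30a-3p. Both miR-30c hairpins gave the same 5p sequence but 3p arms that differed at 3 positions (G9A, U12C and C22U from miR-30c-1-3p to miR-30c-2-3p). Reads of the 2 genes can therefore be told apart for the 3p arm alone.

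The hairpins place these strands beside each other, here with both mature arms in capitals:
MIR30A: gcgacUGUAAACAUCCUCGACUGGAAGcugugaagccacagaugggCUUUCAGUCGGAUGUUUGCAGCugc
MIR30E: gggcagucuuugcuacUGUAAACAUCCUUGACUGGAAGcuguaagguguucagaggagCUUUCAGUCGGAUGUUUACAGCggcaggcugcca
MIR30C1: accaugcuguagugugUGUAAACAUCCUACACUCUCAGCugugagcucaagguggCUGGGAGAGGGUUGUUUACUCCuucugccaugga
MIR30C2: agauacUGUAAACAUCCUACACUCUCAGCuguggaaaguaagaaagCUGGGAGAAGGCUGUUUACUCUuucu
In GRCh38, MIR30E (chr1:40754355-40754446) and MIR30C1 (chr1:40757284-40757372) lie on the plus strand within introns of NFYC, a protein-coding gene for a subunit of the transcription factor NF-Y, with 2837 bases between them. MIR30C2 (chr6:71376960-71377031) and MIR30A (chr6:71403551-71403621), both read from the minus strand, sit inside introns of the long noncoding RNA genes LINC00472 and AL136164.2, with 26519 bases between them. All of these host genes are transcribed in the direction of the hairpins they hold.

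The remaining hairpins, MIR30B (134800520 to 134800607) and MIR30D (134804876 to 134804945), lie on the minus strand of chromosome 8 in GRCh38, with 4268 bases between them and no other gene of GENCODE 29 overlapping them. Their sequences are not printed here. Over the full length of the 5p arms, the edit distance split the family. miR-30a-5p lay at a distance of 1 from both miR-30d-5p and miR-30e-5p, and miR-30b-5p at 3 from miR-30c-5p, whereas the distances between these groups ran from 6 to 8. Since reads with a mismatch may have been counted on a neighbour at a distance of 1, the split of counts among miR-30a-5p, miR-30d-5p and miR-30e-5p is less certain than their sum.

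The 5p arms were among the most abundant miRNAs of the cells. hsa-miR-30a-5p received 47529 counts in normoxia and 100698 in hypoxia, or 10527 CPM (interval 10433 to 10622) and 11709 CPM (11637 to 11781). It ranked 5th of all mature miRNAs in normoxia and 6th in hypoxia. These intervals, like those for all levels and shares here, are exact Clopper-Pearson intervals at 95%. They cover counting error alone and say nothing of the spread between cultures. PCR copies of a molecule were not told apart, so reads were treated as independent and the intervals may be too narrow even for counting error. The same holds for the intervals of ratios and differences below.

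hsa-miR-30c-5p, which has the same sequence in both miR-30c genes and 1 counting window, listed at the gene on chromosome 6, came next with 24655 counts in normoxia and 70187 in hypoxia, or 5461 CPM (5393 to 5529) and 8161 CPM (8101 to 8221). hsa-miR-30d-5p had 13845 and 36304 counts, or 3067 CPM (3016 to 3118) and 4221 CPM (4178 to 4265). The order of these 3 was the same in both libraries, with intervals that did not overlap.

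The lower places changed hands. hsa-miR-30e-5p had 11952 counts in normoxia and 22378 in hypoxia, or 2647 CPM (2600 to 2695) and 2602 CPM (2568 to 2636). hsa-miR-30b-5p had 10612 and 30745 counts, or 2350 CPM (2306 to 2396) and 3575 CPM (3535 to 3615). In normoxia miR-30e-5p was 1.13-fold above miR-30b-5p, and in hypoxia miR-30b-5p was 1.37-fold above miR-30e-5p. In both libraries the intervals of these arms did not overlap. The most abundant 5p arm stood 4.48-fold above the least abundant in normoxia and 4.50-fold in hypoxia.

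The 3p arms were far lower and covered a wide range. hsa-miR-30e-3p was the most abundant with 787 counts in normoxia and 2367 in hypoxia, or 174 CPM (162 to 187) and 275 CPM (264 to 287). hsa-miR-30a-3p followed with 308 and 863 counts, or 68.2 CPM (60.8 to 76.3) and 100.3 CPM (93.8 to 107.3). Both lay higher in hypoxia than in normoxia, with intervals that did not overlap between the libraries.

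The 3p arms of the remaining members were near the limit of what these depths show. hsa-miR-30d-3p had 24 counts in normoxia and 49 in hypoxia, or 5.32 CPM (3.41 to 7.91) and 5.70 CPM (4.22 to 7.53). hsa-miR-30b-3p had 15 and 57 counts, or 3.32 CPM (1.86 to 5.48) and 6.63 CPM (5.02 to 8.59). These levels did not differ from each other beyond counting error in either library, where their intervals overlapped. A count of 0 would have allowed up to 3 counts, or 0.664 CPM in normoxia and 0.349 CPM in hypoxia, and all members were above it.

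**Figure D1:**
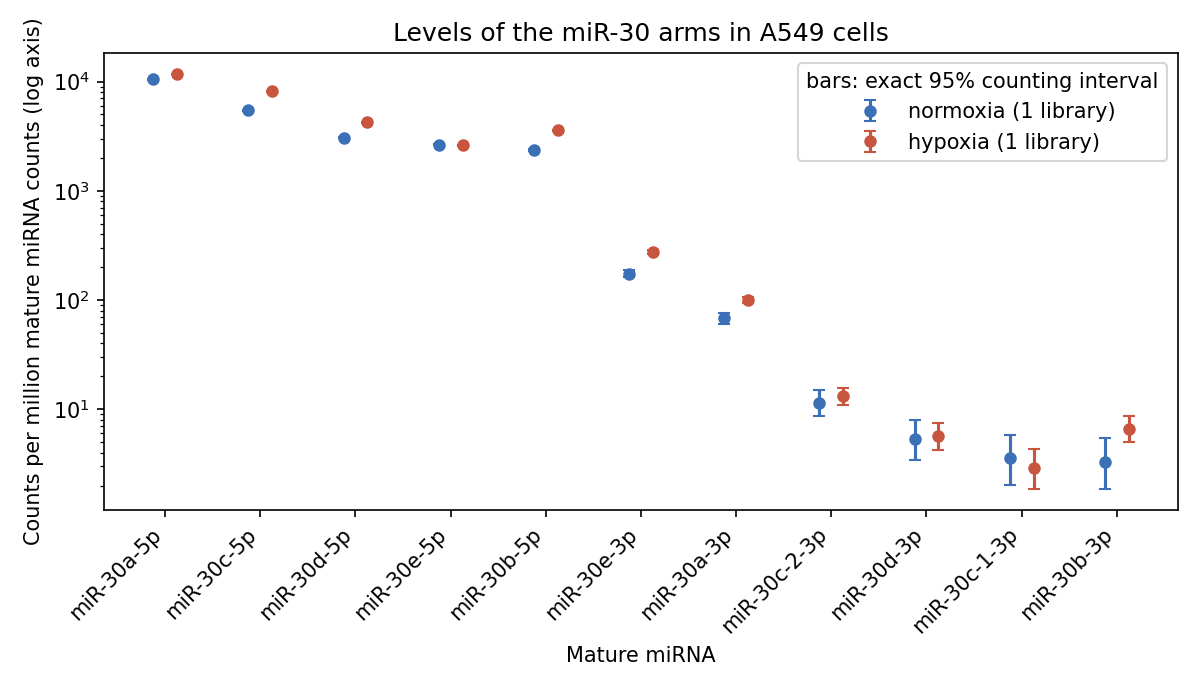
Level of each miR-30 arm in CPM (log axis) in the normoxia and the hypoxia library, with exact 95% counting intervals and 1 library per condition. The 5 arms named 5p lie between 2350 and 11709 CPM, and the 3p arms between 2.91 CPM for miR-30c-1-3p in hypoxia and 275 CPM for miR-30e-3p in hypoxia.

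Summed over the 5 members, the 5p arms took 108593 counts in normoxia, 2.41% of the counts on mature miRNAs (interval 2.39% to 2.42%), and 260312 in hypoxia, 3.03% (3.02% to 3.04%). When the counts of all mature miRNAs were summed by their seed, this was the 2nd most abundant of 700 seeds in both libraries. The first was that of miR-21-5p, which alone took 72.2% and 68.4% of the counts. In normoxia the next seeds were those of miR-22-3p, a single miRNA with 2.34%, and miR-23b-3p with 2.22%, so that the miR-30 seed stood above them only as a sum of its members.

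Within this sum the members did not keep the same proportions. miR-30a-5p made up 43.8% of the 5p counts in normoxia (43.5% to 44.1%) and 38.7% in hypoxia (38.5% to 38.9%). miR-30c-5p went the other way, from 22.7% (22.5% to 23.0%) to 27.0% (26.8% to 27.1%). miR-30b-5p made up 9.77% and 11.8%, miR-30d-5p 12.7% and 13.9%, and miR-30e-5p 11.0% and 8.60%. By sequence group, miR-30b and miR-30c together gave 32.5% of the counts in normoxia and 38.8% in hypoxia, and the remainder came from miR-30a, miR-30d and miR-30e. These proportions do not depend on how the libraries are scaled.

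**Figure D2:**
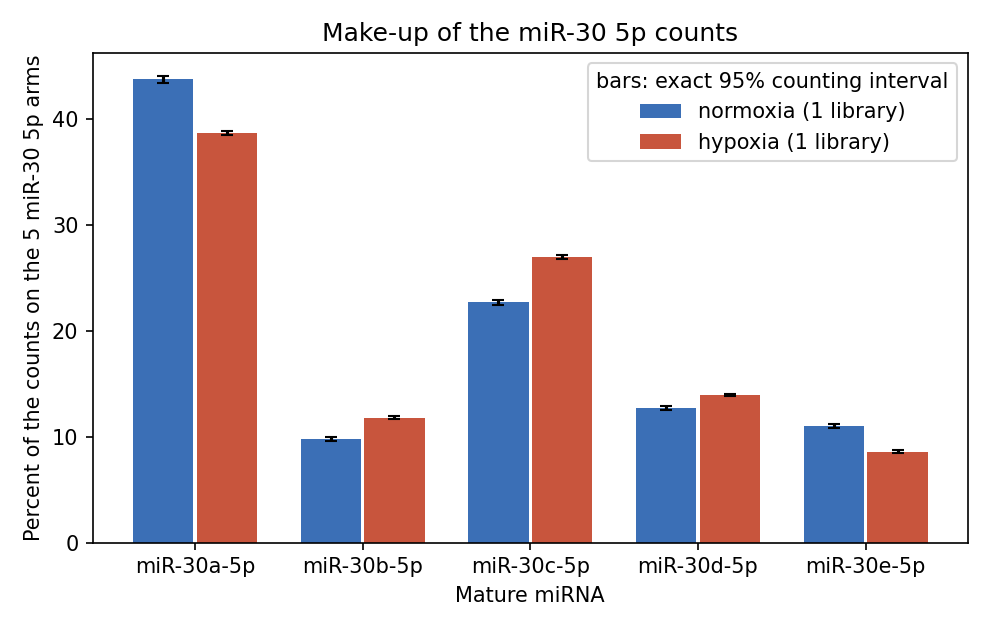
Percent of the summed counts of the 5 miR-30 5p arms that fell on each arm, in the normoxia and the hypoxia library (1 each), with exact 95% counting intervals. The bars of miR-30a-5p and miR-30e-5p are lower in hypoxia (38.7% against 43.8%, and 8.60% against 11.0%), and those of miR-30b-5p, miR-30c-5p and miR-30d-5p are higher.

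The study set hypoxia against normoxia, so each miRNA was given the difference of its log2 CPM values, hypoxia minus normoxia, termed its log2 ratio (a prior count of 2 kept low counts from giving extreme ratios). No test of the condition was possible with 1 library each, so the ratios are given with exact conditional binomial 95% intervals (counting error) and set beside the 339 mature miRNAs with a mean log2 CPM above 3. A miRNA was called higher or lower by size alone, where its log2 ratio reached 0.9 or -0.9. Of these 339 miRNAs, 3.54% were called higher and 3.24% lower, or 12 and 11 miRNAs, against 8 and 15 with TMM scaling and 5 and 18 when the most abundant miRNAs were left out of the totals. Of the 9 members, 7 passed the filter on low counts, namely the 5p arms, miR-30a-3p and miR-30e-3p, and 0 were called higher and 0 lower. For scale, miR-210, the best known miRNA of the hypoxic response, had a log2 ratio of 1.48, from 4307 counts in normoxia and 22849 in hypoxia.

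Below that threshold the members spread out. hsa-miR-30b-5p had a log2 ratio of 0.60 (0.57 to 0.64), a level 1.52-fold higher in hypoxia. hsa-miR-30c-5p had a log2 ratio of 0.58 (0.56 to 0.60), or 1.49-fold, and hsa-miR-30d-5p one of 0.46 (0.43 to 0.49), or 1.38-fold. These 3 were above the upper quartile of the 339 miRNAs, 0.38, at percentiles 89.4, 88.5 and 82.0. Under the other scalings their log2 ratios were lower than these intervals, at 0.41 to 0.53, 0.38 to 0.51 and 0.27 to 0.39.

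The remaining 5p arms had ratios nearer to 0. hsa-miR-30a-5p had a log2 ratio of 0.15 (0.14 to 0.17). This turned to -0.042 when the most abundant miRNAs, miR-30a-5p itself among them, were left out of the totals. hsa-miR-30e-5p had a log2 ratio of -0.02 (-0.06 to 0.01), and of -0.22 to -0.10 under the other scalings. Their percentiles among the 339 miRNAs were 55.2 and 37.8, on either side of the median miRNA at 0.08. Among the 7 members past the filter 6 had a log2 ratio above 0, against 59.6% of the 339 miRNAs. With TMM it was 6 members against 47.5%, and without the most abundant miRNAs, where miR-30a-5p turned, 5 members against 40.7%.

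The whole scale moves with the choice of scaling. TMM scaling lowered the median of the 339 miRNAs by 0.11 and totals without the most abundant miRNAs by 0.19, and the members moved down with it. Relative to the median miRNA, miR-30b-5p stood 0.53 higher, miR-30c-5p 0.50, miR-30d-5p 0.38 and miR-30a-5p 0.07 on the log2 scale, and miR-30e-5p at -0.10. The summed 5p arms had a log2 ratio of 0.33 (0.32 to 0.34), or 1.26-fold, and of 0.14 to 0.26 under the other scalings.

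Differences between members are free of the scaling. All 10 pairs of 5p arms were compared. The largest difference in log2 ratio was 0.63 between miR-30b-5p and miR-30e-5p (counting standard error 0.0230), followed by 0.60 between miR-30c-5p and miR-30e-5p (0.0195). For 9 of the 10 pairs the counting interval of the difference left out 0. The exception was miR-30b-5p minus miR-30c-5p, at 0.03 with an interval of -0.01 to 0.06. Both pairs at an edit distance of 1 differed by more than miR-30b-5p and miR-30c-5p did, miR-30a-5p and miR-30d-5p by 0.31 (counting standard error 0.0165) and miR-30a-5p and miR-30e-5p by 0.18 (0.0182).

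Neighbours on a chromosome could be set side by side where each 5p arm has a single gene. miR-30b-5p and miR-30d-5p, from the hairpins on chromosome 8, differed in log2 ratio by 0.14 (interval 0.10 to 0.19), the smallest difference but 2 among the 10 pairs. miR-30e-5p and miR-30a-5p each share a host transcript region with a miR-30c gene. Their differences from miR-30c-5p were 0.60 and 0.43, but reads of miR-30c-5p match both genes, and how many of those from the gene on chromosome 1 were counted is not known.

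**Figure D3:**
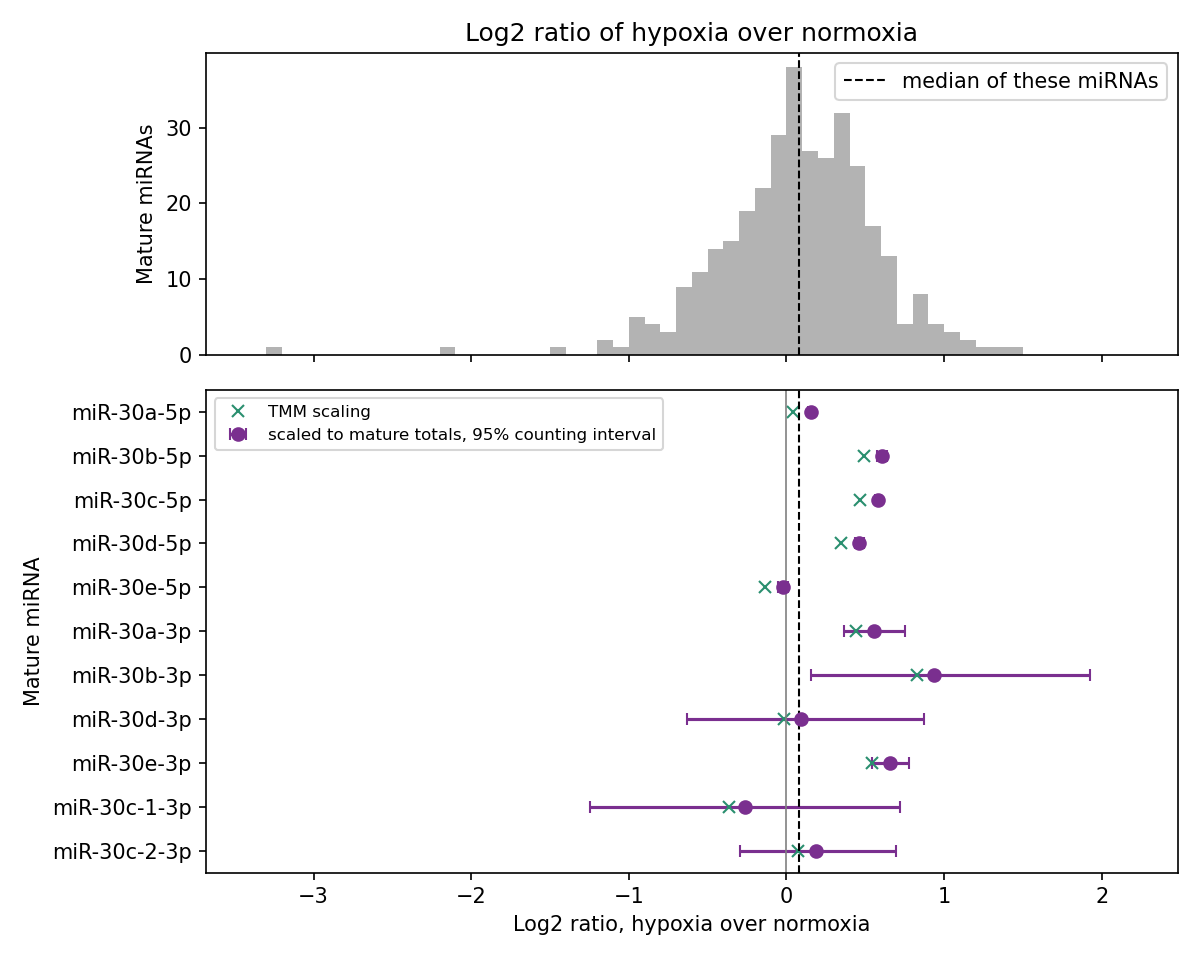
Top: number of mature miRNAs by log2 ratio of hypoxia over normoxia, for the 339 with a mean log2 CPM above 3, with their median at 0.08 as a broken line. Bottom: log2 ratio of each miR-30 arm scaled to the totals of mature miRNAs (circles, with exact 95% counting intervals) and under TMM scaling (crosses), which shifts the arms alike and leaves miR-30b-5p, miR-30c-5p and miR-30d-5p well above 0 and miR-30e-5p at -0.14.

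The 5p arm was the dominant strand of miR-30a, miR-30b, miR-30d and miR-30e, to very different degrees. The 3p arm gave 0.141% of the counts on both arms for miR-30b in normoxia (interval 0.0790% to 0.233%) and 0.173% for miR-30d (0.111% to 0.257%). It gave 0.644% for miR-30a (0.574% to 0.720%) and 6.18% for miR-30e (5.77% to 6.61%). Although miR-30a and miR-30e differ by 1 base in each arm, miR-30e thus had 15.2 counts on its 5p arm per count on its 3p arm and miR-30a 154. As with the 5p arms, reads with a mismatch may have been counted on the other member, and the effect of this on these ratios was not tested.

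Set against hairpins outside the family, miR-30a, miR-30b and miR-30d were more one-sided than most, and miR-30e was not. Of 194 other hairpins with both arms listed, 120 had at least 100 counts over both arms in each library. The 5p arm was the larger in 73 of them in normoxia, and the smaller arm gave a median of 3.93% of the counts. In normoxia a smaller share than that of the 3p arm was found in 7 of the 120 hairpins for both miR-30b and miR-30d, in 30 for miR-30a and in 70 for miR-30e. In hypoxia these counts were 13 for miR-30b, 9 for miR-30d, 35 for miR-30a and 80 for miR-30e, so that most of the other hairpins had a smaller minor arm than miR-30e in both libraries.

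In hypoxia the 3p share was larger for miR-30a and miR-30e. For miR-30e the share was 9.57% (9.20% to 9.94%), against 6.18% in normoxia, and for miR-30a 0.850% (0.794% to 0.908%), against 0.644%. The 3p arm of miR-30e had a log2 ratio of 0.66 (0.54 to 0.78) and that of miR-30a one of 0.55 (0.37 to 0.75), above those of their 5p arms. Under the other scalings these 3p ratios were 0.46 to 0.59 and 0.36 to 0.48. The 5p minus 3p difference in log2 ratio, on which the scaling has almost no effect, was -0.68 for miR-30e (counting standard error 0.0616) and -0.40 for miR-30a (0.0961).

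For miR-30b and miR-30d the 3p counts were few and the intervals wide. The log2 ratio of miR-30b-3p was 0.93 (0.16 to 1.92) and that of miR-30d-3p 0.09 (-0.63 to 0.87), both below the expression filter. The 5p minus 3p difference was -0.33 for miR-30b (interval -1.15 to 0.49) and 0.37 for miR-30d (-0.34 to 1.07), and both intervals held 0. Many of the 120 other hairpins have few counts on the smaller arm, so arm differences were compared with the 45 that had at least 100 counts on each arm in each library. Their median absolute difference was 0.49, and 9 of the 45 had one as large as that of miR-30e and 24 one as large as that of miR-30a. Over all 120 the median was 0.47, and 40 had one as large as that of miR-30e and 67 as that of miR-30a. For miR-30b and miR-30d these counts were 78 and 73 of the 120.

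miR-30c has 1 listed 5p arm and 2 listed 3p arms. hsa-miR-30c-2-3p had 52 counts in normoxia and 113 in hypoxia, and hsa-miR-30c-1-3p had 16 and 25. The 3p counts of the gene on chromosome 6 were thus 3.25-fold and 4.52-fold those of the gene on chromosome 1, which describes the stable 3p strands and not the source of the 5p arm. Together they gave 0.275% of the counts on all miR-30c arms in normoxia (0.214% to 0.349%) and 0.196% in hypoxia (0.165% to 0.232%). The 5p minus 3p difference in log2 ratio was 0.49 (counting interval 0.07 to 0.91), of the opposite sign to those of miR-30a and miR-30e. The 3p share of miR-30c was thus the lower in hypoxia, though the intervals of the shares overlapped. The 3p sum pools miR-30c-1-3p, with a log2 ratio of -0.26 (-1.25 to 0.72), and miR-30c-2-3p, with 0.19 (-0.30 to 0.69). How many 5p reads of the gene on chromosome 1 were counted is not known.

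**Figure D4:**
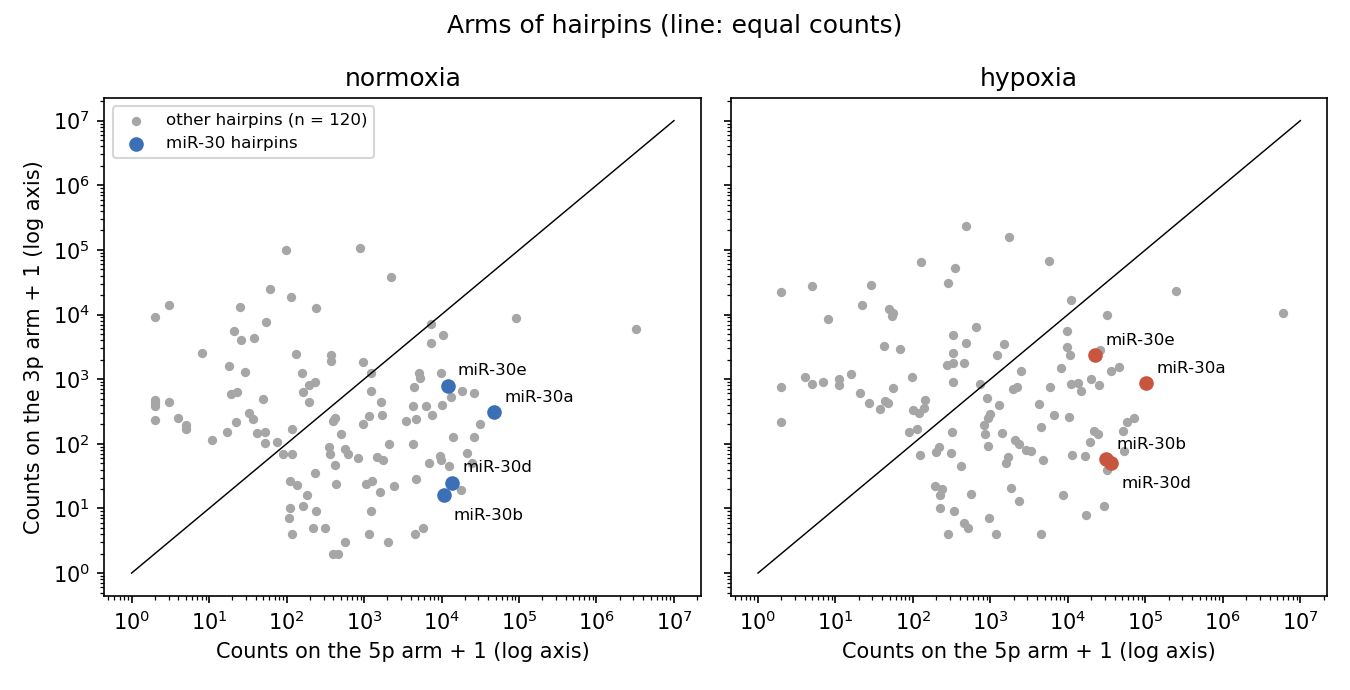
Counts on the 5p arm and on the 3p arm (both plus 1, log axes) of the 4 miR-30 hairpins with arms named 5p and 3p and of 120 other hairpins with at least 100 counts in each library, in normoxia and in hypoxia. All 4 lie below the line of equal counts, miR-30b and miR-30d farthest (0.141% and 0.173% of their counts on the 3p arm in normoxia) and miR-30e nearest (6.18%).

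The spread of ratios within the family was compared with that of other miRNAs that share a seed. Including miR-30, 8 seeds had at least 4 miRNAs past the expression filter. The range from the lowest to the highest log2 ratio was 0.63 for the miR-30 5p seed, and the smallest and largest of the 8 ranges were 0.54 and 2.67. Only the seed of miR-320a had a smaller range than miR-30, while by the standard deviation (0.278 for miR-30) the seeds of miR-320a (0.260) and miR-16 (0.252) were both less spread. These ranges rest on single miRNAs. When each seed was left without the miRNA farthest from its median, the range of miR-30 was 0.45 (without miR-30e-5p) and 3 seeds had a smaller one, those of miR-23b, miR-320a and miR-16. The let-7 seed, with 10 miRNAs, went from 2.67 to 1.13 without miR-4500, and the miR-23b seed from 0.81 to 0.25 without miR-130a-5p. Both of these left-out miRNAs had few counts, 106 in normoxia and 43 in hypoxia for miR-4500 and 36 and 142 for miR-130a-5p. No miR-30 5p arm had fewer than 10612. A range also tends to grow with the number of miRNAs, which ran from 4 to 10 over the 8 seeds.

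Set beside miR-30, 4 other families with lower shares had summed ratios in both directions. The let-7 family, 9 guide strands that restrain proliferation, took 1.41% of the counts in normoxia and 1.55% in hypoxia, with a summed log2 ratio of 0.14 that ran from -0.059 to 0.066, on either side of 0, under the other scalings, where 2 of 9 members were above 0 in place of 4. The miR-26 pair took 0.469% and 0.594%, with a summed log2 ratio of 0.34 that lay close to the 0.33 of miR-30 and ran from 0.14 to 0.27 under the other scalings. The miR-29 family, known to repress collagens, took 0.675% and 0.557%, with a summed log2 ratio of -0.28, or -0.47 to -0.35 under the other scalings, and 0 of 3 members above 0 in each. The miR-200 family, which like miR-30 is tied to the epithelial state, took 0.117% and 0.136%, or 0.22 on the log2 scale, which shrank to between 0.028 and 0.15 under the other scalings, with 1 of 5 members above 0 in place of 3. The share of the miR-30 5p arms was larger than that of each of these 4 families.

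**Figure D5:**
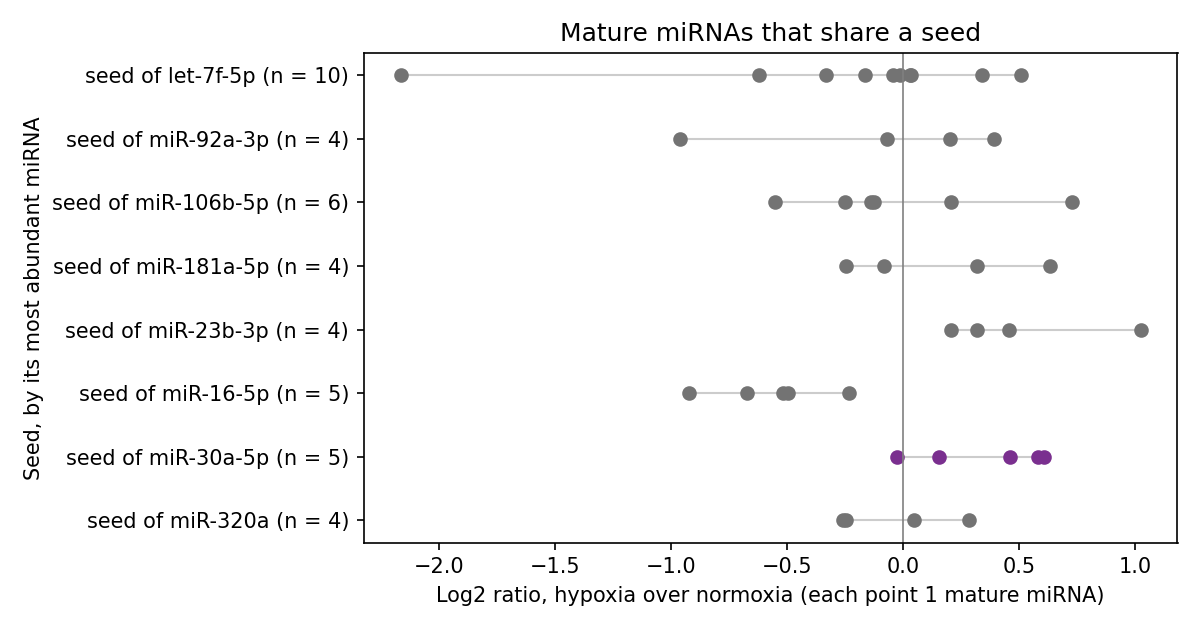
Log2 ratio of hypoxia over normoxia (each point 1 mature miRNA past the expression filter) for the 8 seeds with at least 4 such miRNAs, each seed named after its most abundant miRNA and ordered by range. The 5 miR-30 members span from -0.02 to 0.60, a range of 0.63 that is smaller than those of 6 of the other seeds.

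The cell line was checked by marker miRNAs. All 6 epithelial markers were listed, with 1168 CPM in normoxia and 1362 in hypoxia in sum, mostly from miR-200b-3p, while miR-205-5p had 12 and 15 counts. Endothelial miR-126 (both arms) reached 222 and 221 CPM and mesenchymal miR-143-3p and miR-145-5p 129 and 118. The blood cell markers, 4 of 6 listed, reached 19.9 and 23.4 CPM, mostly from miR-451a, those of neurons 52.1 and 53.1, mostly from miR-9-5p, and those of muscle (1 of 3 listed) and liver at most 2.09. The part of these markers in the ratios of the miR-30 members was not tested.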

How the data were processed

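Small RNA libraries of A549 cells were prepared by ligation for SOLiD sequencing and amplified without molecular identifiers. The table deposited by the authors holds raw counts, not normalized, with 1 library per condition. Their methods name LifeScope 2.5.1 with miRBase 18 for SOLiD data, without naming these libraries, and the submitters' processing notes name hg19. How reads matching several genes were counted was not stated in the sources. The deposited counting windows of the members hold the mature sequence with 1 base on either side, and the seeds read from them were those of RefSeq for 676 of 687 miRNAs matched by name.

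Counts on the 859 mature miRNAs were scaled to their total. Log2 CPM followed the formula of edgeR 4.0.16 with a prior count of 2. TMM and DESeq2 1.42.0 size factors in R 4.3.3 were alternatives, as were other totals, a prior count of 0.5, thinning of the hypoxia library, other filters and other denominators. Intervals were computed with scipy 1.17.1 in Python 3.11.15. The calculation was tested on simulated data at these depths that carried counting error alone, without the spread between cultures.

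The members, gene lists and alternatives were chosen with earlier results of these data known. The text names the members, both miR-30c 3p arms, the nearest miRNAs of miR-30a-5p by level, miR-21-5p, miR-210, 4 comparison families and markers of cell types. miRNAs named for their seed or their rank beside the miR-30 seed were chosen after their values were seen, as were the seed ranges without the farthest miRNA and the minimum of 100 counts on each arm. The sequences of MIR30B and MIR30D are not reported here.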

Additional observations from a re-analysis of the deposited data

Results flagged for a closer look

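The table also lists the 6 whole hairpins of the family as entries of their own, which were not used in the comparisons and with a rule of counting not given in the sources used here. All had more than the 3 counts that a count of 0 allows. The entry of MIR30A had 78 counts in normoxia and 177 in hypoxia, that of MIR30D 46 and 91, and that of MIR30E 44 and 57. The entry of MIR30B had 13 and 39 counts, that of MIR30C1 11 and 33, and that of MIR30C2 11 and 42. Together they held 203 and 439 counts, or 1.85 and 1.66 per 1000 counts on the mature arms. There was no control library for these entries.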

How the results depend on the processing

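No paired analysis was possible because only 1 library represents each condition, which also left no replicate to omit. The summed 5p log2 ratio of 0.33 stayed above 0 under each scaling, at 0.22 with TMM, 0.26 with DESeq2 size factors, 0.24 with totals over all features and 0.14 after removing the 10 most abundant miRNAs of either library from the totals. Under the last, whose totals lack miR-30a-5p and miR-30c-5p themselves, miR-30a-5p reversed to -0.042.

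Of all miRNAs, 12 were called higher and 11 lower, against 5 and 18 without the most abundant, 113 and 64 without a filter on low counts, as 859 were then considered, and 8 and 6 at a log2 threshold of 1. The share of higher calls was 52.2%, against 34.8% with TMM, DESeq2 or all features and 21.7% without the most abundant. The threshold stayed fixed while the median log2 ratio shifted by -0.11 with TMM, -0.07 with DESeq2, -0.09 with all features and -0.19 without the most abundant. What lies behind these shifts was not tested.

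The share of the family was 2.43% and 3.07% with the 3p arms added and 1.68% and 1.98% of all features, in normoxia and hypoxia. Its counts were 15.5% and 17.1% of a total without the most abundant miRNAs, which is a ratio and not a share, since that total lacks miR-30a-5p and miR-30c-5p. The median 5p share of the other hairpins was 81.0% and 76.5%, against 88.5% and 90.1% with at least 1000 counts and 68.8% and 71.0% with at least 20. Depth limits the 3p arms of miR-30b, miR-30c and miR-30d.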

Other observations

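By level, the miRNAs nearest to miR-30a-5p in normoxia were miR-23b-3p and miR-31-5p above it and miR-19b-3p and miR-92a-3p below it. miR-31-5p ranked 4 in normoxia and 2 in hypoxia, with 20199 CPM in normoxia and 28730 in hypoxia, and miR-23b-3p held rank 3 with 21910 and 27306 CPM. miR-19b-3p, of a cluster known to promote proliferation, had 10447 and 13882 CPM and so passed miR-30a-5p in hypoxia. miR-92a-3p had 10114 and 9638 CPM, with a log2 ratio of -0.07. With 1 library per condition, these are values of 2 libraries and not a comparison of conditions.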
